A study of Saccharomyces cerevisiae with 96 samples.

Results

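Thiamine, vitamin B1, is built by yeast from a pyrimidine part and a thiazole part that are made separately, joined as thiamine phosphate and turned into thiamine diphosphate, the form that enzymes such as pyruvate decarboxylase and transketolase carry as a cofactor. The genes of synthesis and uptake are switched on together when thiamine is scarce, by the regulators Thi2, Thi3 and Pdc2, and are kept low when thiamine is plentiful. Nonsense-mediated mRNA decay (NMD) is the pathway that degrades mRNAs on which translation ends too early, and it needs the helicase Upf1.

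The genes described here are 9 members of this system. They are the regulators *THI2* (YBR240C) and *THI3* (YDL080C) and the synthesis genes *THI4* (YGR144W, thiazole), *THI6* (YPL214C, which joins these parts), *THI20* (YOL055C, a pyrimidine kinase) and *THI80* (YOR143C, which makes thiamine diphosphate). To these come the plasma membrane thiamine transporter *THI7* (YLR237W), the periplasmic acid phosphatase *PHO3* (YBR092C), which frees thiamine from its phosphates outside the cell, and *PET18* (YCR020C). *PET18* codes for a protein of unknown function with weak similarity to proteins of thiamine metabolism. Members were taken as the probe sets whose annotation names 1 of these genes and no other, and each of the 9 genes had 1 such probe set, among 9275 probe sets compared and 6504 with a single gene name. The members were selected on measured values, with the strain difference at 0 min known, and *PET18* had also been picked out by the study for its course over the hour on these arrays. The strain difference at 0 min and the strain difference in the change of *PET18* are therefore given as descriptions, with no test. The strain windows after 0 min are later harvests of the same courses, so their tests are not independent of that choice. The fall of *PET18* within Nmd- is part of its difference in change, so its call is no independent evidence. The changes within a strain start from windows that hold the 0-min arrays, and are also given from 2 min alone. *PET18*, *THI6* and *THI3* are also on the study's own list of NMD-sensitive RNAs, which was drawn up on these same arrays and is therefore no independent evidence.

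The data were 96 Affymetrix YG-S98 arrays of *Saccharomyces cerevisiae*. They compared the wild-type strain S288C (Nmd+) with the congenic strain YRZ1 (Nmd-), in which *UPF1* is replaced by the KanMX4 cassette. Mid-log cultures of both strains received 10 μg/ml thiolutin, which inhibits transcription. They were harvested at 16 times from 0 to 60 min in 3 courses per strain, 48 arrays for each strain. The notes of the 6 arrays at 4 min, the whole of that time in both strains, give 14 μg/ml instead, and these arrays are part of the 2–8 min window. Each strain is 1 strain background, so a difference between them is that of these 2 strains, and precision is limited by how few courses there are. The values are log2 signals that were made alike in overall level over all arrays, so every level is relative to the other mRNAs on the array. An mRNA that outlasts the rest can rise, and one that is lost faster can fall. The study holds it most likely that the inhibition was incomplete, and it cites a report that thiolutin induces heat-shock genes. A rise or fall is therefore no measure of decay alone, and transcription after thiolutin was not tested here.

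Before the members, the arrays themselves have to be described, since some stood against their labels. *UPF1* was at log2 values of 1.93 to 3.81 on 44 of the 48 arrays labelled Nmd- and at 5.42 to 7.44 on the 48 arrays labelled Nmd+, and KanMX4 was at 11.65 to 12.54 on those 44 and at 3.34 to 6.26 on 46 of the 48. The 4 other arrays labelled Nmd-, those of replicate 1 at 10, 40, 45 and 50 min, had *UPF1* at 5.89 to 6.20 and KanMX4 at 4.99 to 5.38, as Nmd+ arrays do. On 2 arrays labelled Nmd+, those of replicate 1 at 20 min and of replicate 3 at 60 min, KanMX4 was at 8.28 and 11.28. The strain markers thus lay on the side of the label on 90 of 96 arrays.

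A second irregularity concerned the order of the times. Each array was placed along the change that the remaining courses showed between 0–2 and 45–60 min in Nmd+, over all probe sets but the members, where a low position is that of early and a high position that of late arrays. In Nmd+ the positions ran with the labelled time, from -0.62 to -0.39 at 0–2 min and from -0.45 to -0.11 at 6–10 min to 0.29 to 0.49 at 45–60 min. In Nmd- the 3 arrays labelled 6 min were at -0.02 to 0.60 and the 3 labelled 10 min at 0.07 to 0.43, while the arrays at 4 and 8 min were at -0.55 to -0.22. All 3 of the 6-min arrays and the 10-min arrays of replicates 2 and 3 lay past the 30-min array of their own course, and no Nmd+ array of the first 12 min did. These 5 arrays and the 6 with a marker against the label, 11 in all, were kept under their labels in the main comparisons, and each main count is also given without them. The Nmd- arrays labelled 2 min are not among the 11, but each lay past the 4-min and 8-min arrays of its own course. Their positions were 0.037, -0.403 and -0.202 in replicates 1, 2 and 3, against -0.300, -0.555 and -0.447 at 4 min and -0.219, -0.500 and -0.390 at 8 min.

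**Figure D1:**
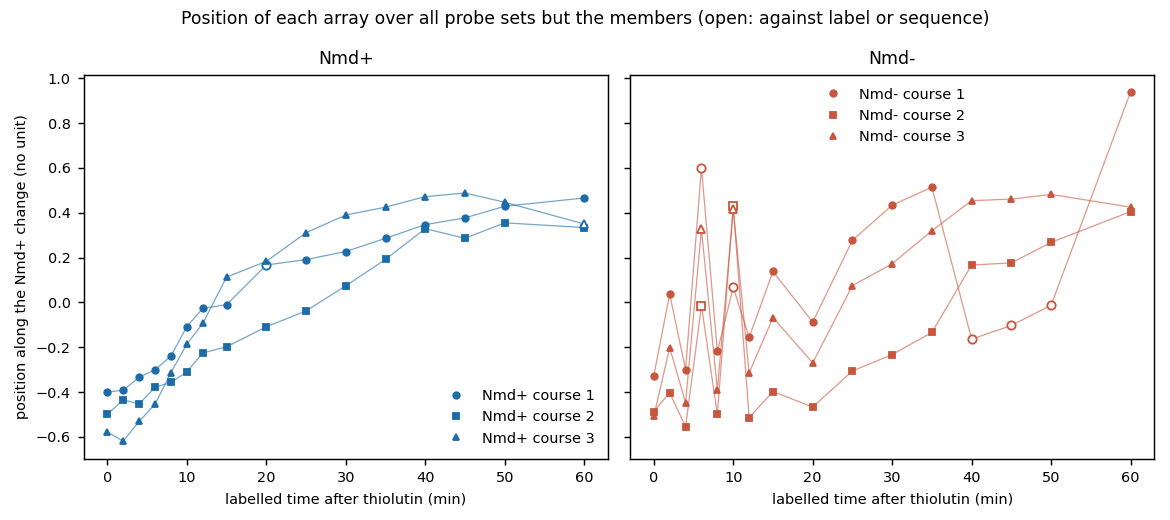
Position of each array (y axis, a unitless regression coefficient) along the genome-wide change between 0–2 and 45–60 min in Nmd+, by labelled minutes after thiolutin (x axis), with Nmd+ in the left and Nmd- in the right panel, a symbol per course and open symbols for the 11 arrays against label or sequence. The Nmd+ courses climb steadily, whereas the Nmd- arrays labelled 6 min stand at -0.02 to 0.60 between neighbours at -0.55 to -0.22.

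*PET18* carried the largest strain difference of the 9 genes at 0, 2–8 and 12–30 min. At 0 min its log2 values were 5.55, 5.18 and 5.10 in Nmd+ and 7.57, 7.81 and 7.56 in Nmd-, a difference of 2.37 or 5.17-fold. Every Nmd- culture was above every Nmd+ culture, and the share of all probe sets with no overlap at 0 min was not counted. By adjusted p and fold in either direction, 4.98% of all probe sets were called in this contrast. Over all 16 times, the 3 Nmd- values lay above the 3 Nmd+ values with no overlap at 12 times, which is reached by 2.70% of the 9275 probe sets at 12 or more times, and at all 16 times once the 6 arrays with a marker against the label were left out, as for 1.73% of probe sets. Both counts include 0 min, with which the genes were chosen.

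After the addition of thiolutin the *PET18* difference persisted through the first 30 min. The course means over 2–8 min were 5.59, 5.21 and 4.98 in Nmd+ and 6.83, 7.13 and 7.21 in Nmd-. The difference was 1.80 ± 0.22 (log2, SE, n = 3 courses per strain), 3.48-fold (limma, Benjamini-Hochberg adjusted p = 0.00691). These courses are those with which *PET18* was chosen, so the p-values here are no independent evidence of a difference. Over 12–30 min the course means were 5.71, 5.13 and 4.79 in Nmd+ and 6.73, 7.38 and 7.09 in Nmd-, a difference of 1.86 ± 0.29 or 3.62-fold (adjusted p = 0.0161). Without the 11 arrays the differences were 1.97 (adjusted p = 0.00743) and 1.86 (adjusted p = 0.0197). Both calls rested in part on single courses: without Nmd+ replicate 2 the adjusted p was 0.0514 at 2–8 min and 0.0964 at 12–30 min, and the later call was also lost without Nmd+ replicate 3 (adjusted p = 0.0513) or Nmd- replicate 2 (adjusted p = 0.0686). Within the scan period that holds replicates 2 and 3 of both strains, the difference was 2.15 at 2–8 min and 2.28 at 12–30 min.

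The gap then narrowed. Over 35–60 min *PET18* stood at 5.84, 5.18 and 5.21 in Nmd+ and at 5.87, 6.68 and 6.39 in Nmd-, a difference of 0.90 ± 0.27 (adjusted p = 0.328). The lowest Nmd- course is replicate 1, whose arrays at 40, 45 and 50 min are those with Nmd+ markers. On the 4 arrays labelled Nmd- that carried Nmd+ markers *PET18* was at 5.13, 5.78, 5.11 and 5.57 (10, 40, 45 and 50 min), inside the range of 4.53 to 5.95 over the 48 arrays labelled Nmd+. Without the 11 arrays the difference at 35–60 min was 1.15 ± 0.25 (adjusted p = 0.0821), with Nmd- replicate 1 then resting on 2 of its 5 arrays. With the scan period as a block, in a fit to single arrays instead of course means, the difference of 0.90 was called (adjusted p = 0.0352). Within the period of replicates 2 and 3 the difference was 1.34.

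Seen over time, *PET18* fell in Nmd- on these arrays, while no call was made in Nmd+. On Northern blots with clustered early times, the study found a longer initial half-life of *PET18* in Nmd- than in Nmd+. It put the reversed direction on its arrays down to too few early times. The changes given here are those of levels relative to other mRNAs, not half-lives. In Nmd- the course means went from 7.06, 7.42 and 7.46 at 0–2 min to 5.70, 6.49 and 6.36 at 45–60 min. All 3 courses were lower at the end, with a change of -1.13 ± 0.12 on the log2 scale, 2.19-fold (adjusted p = 7.613e-05). In Nmd+ the means were 5.60, 5.15 and 5.11 at the start and 5.83, 5.32 and 5.35 at the end, a change of 0.21 ± 0.12 (adjusted p = 0.172). These levels are low: *PET18* lay at 4.53 to 5.95 over all Nmd+ arrays. KanMX4, which Nmd+ lacks, lay at 3.34 to 6.26 on 46 of them. How far a signal at that level could still fall was not tested. The direction in Nmd+ depends on the scale: relative to the reference probe sets, slowly decaying RNAs that the study took as its standard, *PET18* changed by -0.51 in Nmd+ (adjusted p = 0.00266, under the 1.5-fold minimum) and by -1.64 in Nmd- (adjusted p = 1.278e-05). The Nmd- change was called in all 20 alternatives tried, at -0.89 (adjusted p = 0.000246) without the 11 arrays and at -0.80 (adjusted p = 0.00228) from 2 min alone. The alternatives reuse the courses on which *PET18* was picked out for its change, so these calls are no independent evidence. The Nmd- arrays at 2 min also lay past those at 4 and 8 min. Mean *PET18* on them was 6.98, against 7.30 at 4 min and 7.41 at 8 min.

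The change in *PET18* differed between the strains by -1.35 ± 0.17 (interaction of strain and time), a description, since the gene was chosen with this contrast known. With *PET18* low in Nmd+ from the start, a fall in that strain may not be visible, which was not tested. The difference was -1.0 from 2 min alone, a start chosen after the values were seen, -1.11 without the 4 arrays labelled Nmd- with Nmd+ markers, and -1.03 both without the 6 arrays with a marker against the label and without the 11. Over all probe sets the interaction was called for 1.27%, for 0.313% from 2 min alone and for 0.0323%, 3 of the 9275, without the 11. None of the other 8 genes passed the interaction test, and the nearest was *THI6* at -0.76 (adjusted p = 0.0644).

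*THI6*, the thiamine phosphate synthase and hydroxyethylthiazole kinase that joins the pyrimidine and the thiazole, was next in size at 0 and 2–8 min. At 0 min its values were 6.39, 6.63 and 6.12 in Nmd+ and 7.43, 7.49 and 7.54 in Nmd-, a difference of 1.10 or 2.15-fold. Over 2–8 min the course means were 6.45, 6.29 and 6.33 in Nmd+ and 7.42, 7.57 and 7.44 in Nmd-. The difference of 1.12 ± 0.17, 2.17-fold, passed the test (adjusted p = 0.0142), so that 2 of the 9 genes were called at 2–8 min, *PET18* and *THI6*, both higher in Nmd-, against 3.40% of all probe sets (306 higher and 9 lower). Without the 11 arrays the same 2 were called, against 3.23% of probe sets, with *THI6* at 0.99 (adjusted p = 0.0210).

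The *THI6* call at 2–8 min was held by few courses. It was lost without Nmd+ replicate 2 (adjusted p = 0.0918) and without any of the Nmd- replicates (adjusted p = 0.0529, 0.0710 and 0.0610 for replicates 1, 2 and 3), although the difference stayed between 1.07 and 1.14 in those fits. It was also lost relative to the reference probe sets, where it was 1.02 (adjusted p = 0.0824), and within the scan period of replicates 2 and 3, where it was 1.10 (adjusted p = 0.0829).

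At later times *THI6* was called only at 12–30 min, and not in the main comparison. The call was made with the courses paired by replicate number and with the scan period as a block. Over 12–30 min the means were 6.89, 6.61 and 6.49 in Nmd+ and 7.30, 7.65 and 7.49 in Nmd-, a difference of 0.82 ± 0.21 (adjusted p = 0.100, or 0.0225 with the replicate number as a block). At 35–60 min they were 6.88, 6.68 and 6.86 against 6.97, 7.40 and 7.46, a difference of 0.47 ± 0.19 (adjusted p = 0.445), and 0.81 (adjusted p = 0.140) without the 11 arrays. From 0–2 to 45–60 min *THI6* gained 0.54 ± 0.13 in Nmd+ (adjusted p = 0.00483), which is under the 1.5-fold minimum, and it changed by -0.22 ± 0.13 in Nmd- (adjusted p = 0.209). The Nmd+ value is -0.18 relative to the reference probe sets, so its direction depends on the scale. On the 4 arrays labelled Nmd- with Nmd+ markers *THI6* was at 6.75, 6.40, 6.30 and 6.34, near the Nmd+ courses. The Nmd- values lay wholly above the Nmd+ values at 12 of the 16 times, as for 2.7% of probe sets at 12 or more. Without the 6 marker arrays they did so at 15, as for 2.53% of probe sets at 15 or more. Both counts include 0 min, with which the genes were chosen.

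*THI3*, a regulator related to pyruvate decarboxylases that is thought to sense thiamine diphosphate, had a smaller difference. At 0 min the values were 6.95, 6.97 and 7.11 in Nmd+ and 7.62, 7.54 and 7.71 in Nmd-, a difference of 0.61 or 1.53-fold. It was 0.52 ± 0.21 at 2–8 min (adjusted p = 0.367), 0.62 ± 0.25 at 12–30 min (adjusted p = 0.350, or 0.0346 and called with the replicate number as a block) and 0.33 ± 0.21 at 35–60 min (adjusted p = 0.648). At 12–30 min the course means were 6.36, 6.68 and 6.66 in Nmd+ and 6.74, 7.38 and 7.44 in Nmd-, and each Nmd- course was above the Nmd+ course of the same replicate number. The Nmd- values lay wholly above the Nmd+ values at 6 of 16 times, as 8.77% of probe sets did at 6 or more. Without the 6 marker arrays they did so at 11, as 5.22% did at 11 or more. Here too both counts include 0 min.

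*THI20*, the kinase of the pyrimidine part, varied widely between courses. Its 0-min values were 6.74, 6.06 and 5.93 in Nmd+ and 7.0, 6.58 and 7.16 in Nmd-, a difference of 0.67 with overlap. At 2–8 min the courses were at 6.68, 5.62 and 5.71 in Nmd+ and 6.86, 6.29 and 6.69 in Nmd-, so that Nmd+ replicate 1 stood with the Nmd- courses. The difference of 0.61 ± 0.32 had an adjusted p of 0.559. It was called with the scan period as a block (0.66, adjusted p = 0.00180), in a fit to single arrays instead of course means. The array labelled Nmd+ replicate 1 at 20 min, on which KanMX4 was above the other Nmd+ values, held the highest *THI20* value of either strain, 7.44. From 0–2 to 45–60 min the change was 0.11 ± 0.16 in Nmd+ and 0.03 ± 0.16 in Nmd-, and relative to the reference probe sets the Nmd+ change was -0.61 and called (adjusted p = 0.00576).

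**Figure D2:**
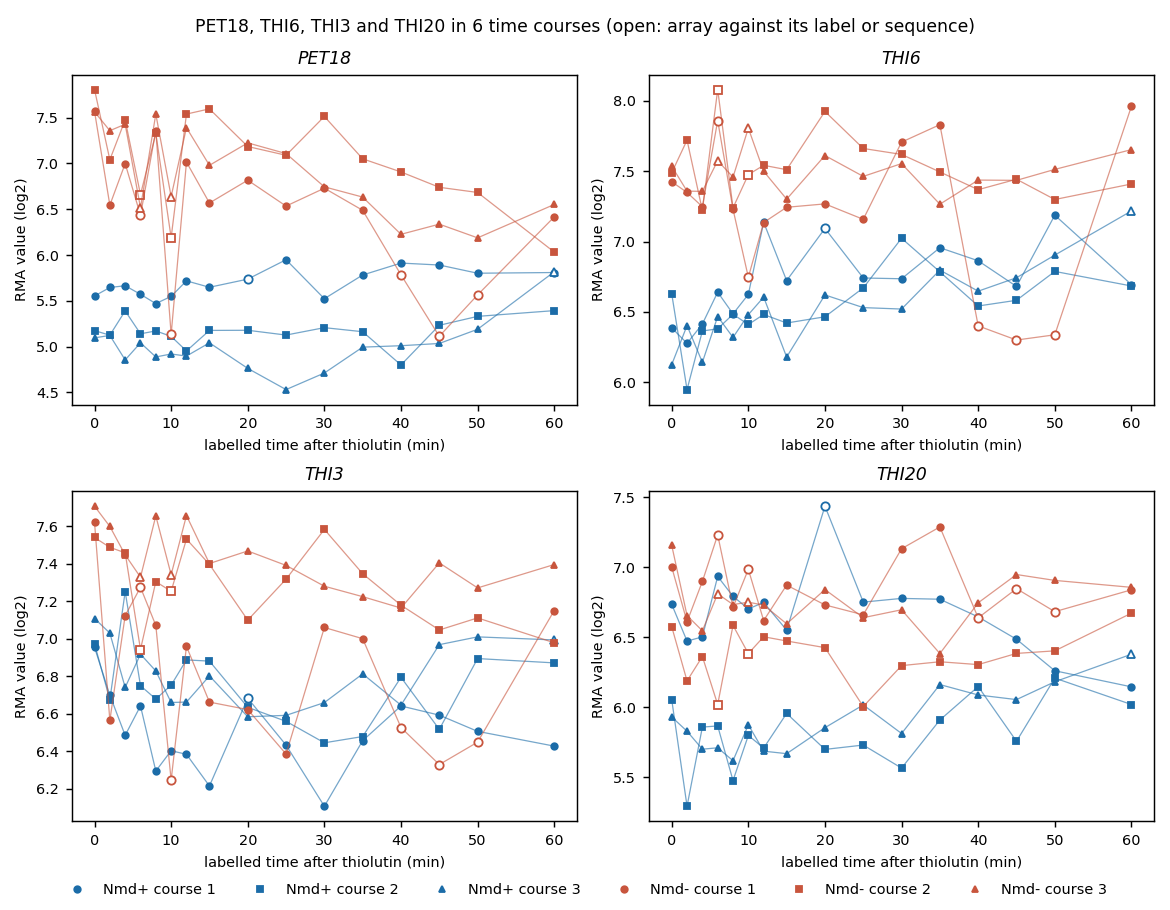
Log2 signal (y axis) of *PET18*, *THI6*, *THI3* and *THI20* by labelled minutes after thiolutin (x axis), a line per course, Nmd+ and Nmd- in separate colours, with open symbols for the 11 arrays against label or sequence. *PET18* stays between 4.53 and 5.95 in Nmd+ and starts at 7.56 to 7.81 in Nmd-, and the replicate 1 arrays labelled Nmd- at 40 to 50 min drop to 5.11 to 5.78.

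Among the strain comparisons, then, 1 of the 9 genes was called at 12–30 min (*PET18*) against 2.73% of all probe sets, and 0 of 9 at 35–60 min against 0% (limma called 0 of the 9275 there, with 964 at an unadjusted p under 0.05, and 5 of the 9 genes at an unadjusted p under 0.05). Without the 11 arrays the counts were 1 of 9 against 2.45% and 0 of 9 against 1.55%. After 0 min the deviations of same-numbered courses from their strain means moved together, so the replicate number was also used as a block. The titles do not say that courses were paired, and this block was taken from these same values. Same-numbered courses were also scanned mostly in the same period, and why they moved together was not tested. With the replicate number as a block, 4 of the 9 genes were called at 12–30 min, all higher in Nmd-, against 12.3% of probe sets: *PET18* (adjusted p = 0.00562), *THI6* (0.0225), *THI3* (0.0346) and *PHO3* (0.0347). With this block 2 of 9 were called at 2–8 min (6.03% of probe sets) and 0 of 9 at 35–60 min (0.334%), as without it.

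**Figure D3:**
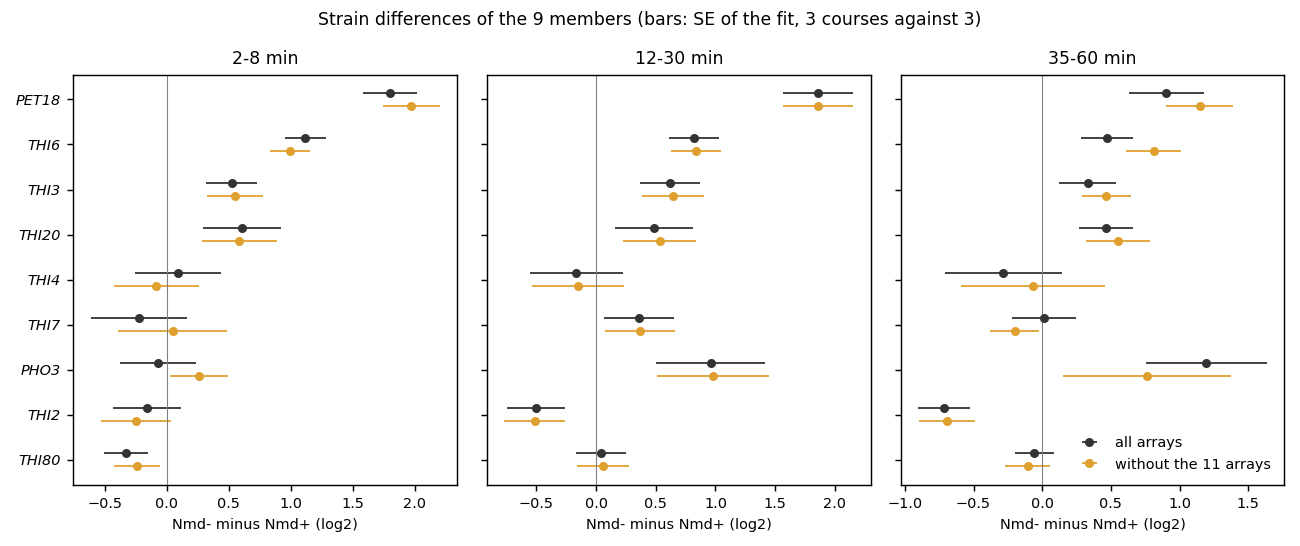
Nmd- minus Nmd+ difference in log2 signal (x axis, with SE, n = 3 courses per strain) of the 9 genes (y axis) at 2–8, 12–30 and 35–60 min, with all arrays in dark and without the 11 arrays against label or sequence in orange. *PET18* lies farthest to the right at 2–8 and 12–30 min, at 1.80 and 1.86, and *THI2* lies to the left of 0 in all panels.

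The largest change over the hour was that of *PHO3*, and it occurred in both strains. In Nmd+ the course means fell from 9.54, 9.73 and 9.91 at 0–2 min to 6.09, 7.99 and 7.54 at 45–60 min. Each course dropped, with a change of -2.52 ± 0.25 on the log2 scale or 5.74-fold (adjusted p = 8.828e-06). In Nmd- they fell from 9.31, 10.01 and 9.78 to 7.97, 8.62 and 7.84, a change of -1.56 ± 0.25 or 2.95-fold (adjusted p = 0.000611), which was -2.26 (adjusted p = 0.000614) without the 11 arrays. Both falls were called in all 20 alternatives. Within the scan period of replicates 2 and 3 they were -2.0 and -1.67.

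The timing of the *PHO3* loss varied between courses. Over 12–30 min the means were 8.00, 9.46 and 7.93 in Nmd+ and 8.76, 9.94 and 9.56 in Nmd-, so Nmd+ replicate 2 stood among the Nmd- courses. The strain difference was 0.96 ± 0.46 at 12–30 min (adjusted p = 0.439, or 0.0347 and called with the replicate number as a block) and 1.20 ± 0.44 at 35–60 min (adjusted p = 0.415). At 60 min the strains held 6.07, 7.54 and 7.82 (Nmd+) and 5.88, 8.35 and 7.74 (Nmd-). The early Nmd- arrays that lay out of sequence were low in *PHO3* too: in replicate 3 it was 9.87 at 4 min, 8.10 at 6 min, 9.97 at 8 min, 7.70 at 10 min and 10.06 at 12 min.

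*THI7*, the main thiamine transporter of the plasma membrane, also fell, and most of its fall came before 30 min. In Nmd+ the course means were 8.54, 7.06 and 8.09 at 0–2 min, 6.60, 6.20 and 6.30 at 20–30 min and 7.15, 6.96 and 6.75 at 45–60 min. The lowest value of each Nmd+ course was at 25 min (6.31, 6.15 and 6.13), below its own values at the end, and the Nmd- courses had theirs at 35, 35 and 25 min (6.22, 6.47 and 6.02). From 0–2 to 45–60 min the change was -0.95 ± 0.21 in Nmd+ (1.93-fold, adjusted p = 0.00345) and -0.66 ± 0.21 in Nmd- (1.58-fold, adjusted p = 0.0296). The starting level of *THI7* differed by over 1 log2 unit between courses of 1 strain, and the calls depended on single courses: the Nmd+ fall was -0.72 (adjusted p = 0.0558) without Nmd+ replicate 1 and -0.75 (adjusted p = 0.0572) without replicate 3, and the Nmd- fall lost its call without each of the Nmd- replicates (adjusted p = 0.158, 0.102 and 0.0760).

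*THI4*, the thiazole synthase, was the 1 member called higher at the end of the hour. Its course means went from 6.41, 5.90 and 5.37 to 7.99, 6.48 and 6.38 in Nmd+. Each course gained, by 1.06 ± 0.22 on average, 2.09-fold (adjusted p = 0.00199). In Nmd- the means went from 6.23, 6.17 and 5.58 to 7.27, 6.12 and 6.50, a rise of 0.64 ± 0.22 or 1.55-fold (adjusted p = 0.0411) in which replicate 2 did not share, and the highest value was that of replicate 1 at 60 min (8.33). That call was lost without Nmd- replicate 1 (0.43, adjusted p = 0.268), without Nmd- replicate 3 (0.50, adjusted p = 0.237) and without Nmd+ replicate 3 (0.64, adjusted p = 0.0605). The rise is one relative to all mRNAs of the array. Relative to the reference probe sets the rise of *THI4* was 0.34 in Nmd+ (adjusted p = 0.241) and 0.13 in Nmd- (adjusted p = 0.674). On that scale the median of all probe sets shifted to -0.68 in Nmd+ and -0.49 in Nmd- from 0.05 and 0.02.

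*THI80*, thiamine pyrophosphokinase, and *THI2*, the transcriptional activator, were the dimmest of the members, with medians near 4 on the log2 scale. *THI80* fell in Nmd+ from 4.33, 4.75 and 5.08 to 4.05, 4.06 and 3.98, a change of -0.69 ± 0.18 or 1.61-fold (adjusted p = 0.00744). Single Nmd+ arrays of the last window ranged from 3.51 to 4.72, both in replicate 1, and the call was lost without Nmd+ replicate 3 (-0.49, adjusted p = 0.0928). In Nmd- it started lower, at 3.94, 4.38 and 4.38, ended at 4.06, 4.13 and 3.99, and was not called (-0.17 ± 0.18, adjusted p = 0.491).

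*THI2* was the 1 member with a lower mean in Nmd- in all 3 strain windows, without a call. Its difference was -0.16 ± 0.28 at 2–8 min (adjusted p = 0.853), -0.50 ± 0.25 at 12–30 min (adjusted p = 0.449) and -0.72 ± 0.19 at 35–60 min (adjusted p = 0.271). In that last window the means were 4.90, 4.64 and 4.43 in Nmd+ and 4.10, 3.75 and 3.96 in Nmd-. Its change from 0–2 to 45–60 min was 0.50 ± 0.16 in Nmd+ (adjusted p = 0.0237, under the 1.5-fold minimum) and 0.33 ± 0.16 in Nmd- (adjusted p = 0.128), and the Nmd+ value was -0.22 relative to the reference probe sets.

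**Figure D4:**
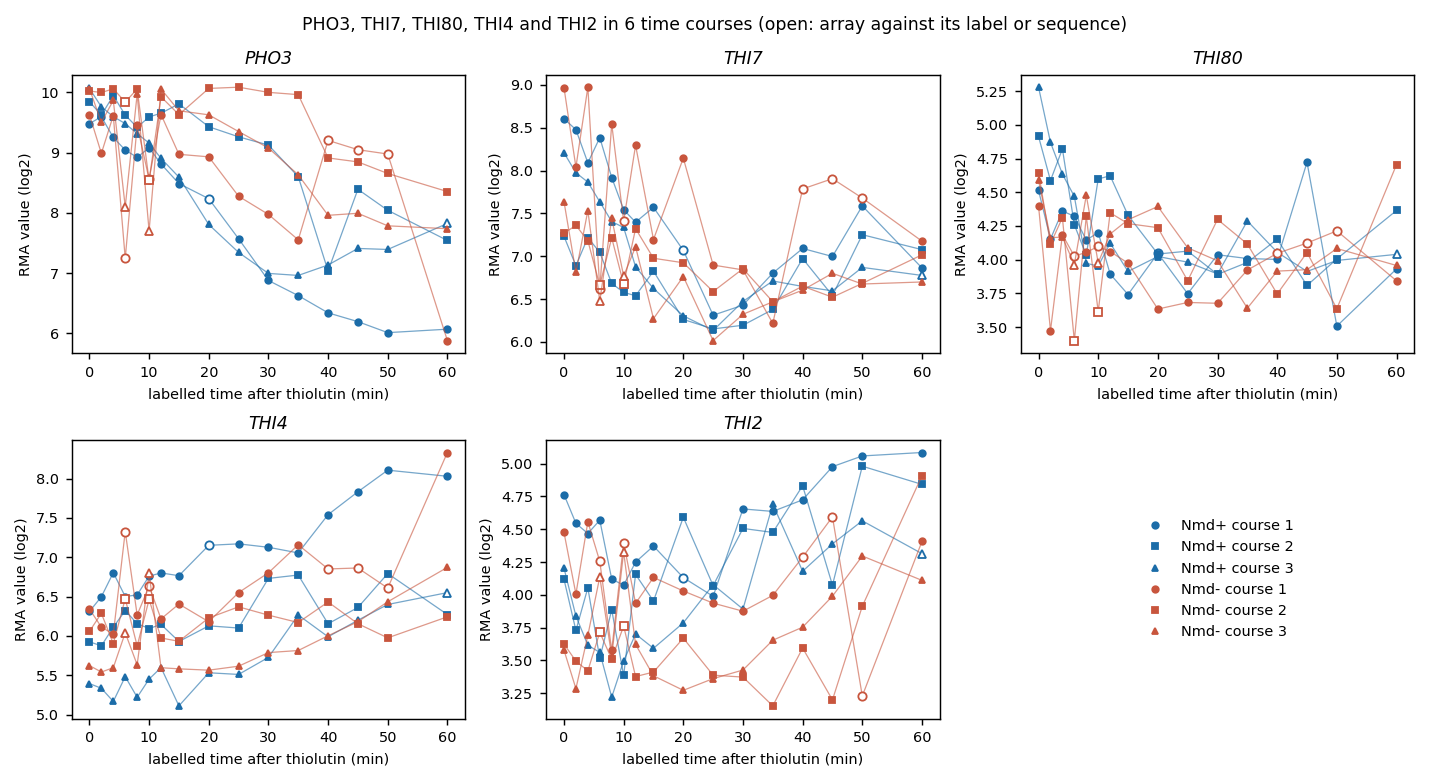
Log2 signal (y axis) of *PHO3*, *THI7*, *THI80*, *THI4* and *THI2* by labelled minutes after thiolutin (x axis), a line per course, Nmd+ and Nmd- in separate colours, with open symbols for the 11 arrays against label or sequence. *PHO3* falls from above 9 to between 5.88 and 8.35 at 60 min, *THI7* dips near 25 to 35 min, and *THI4* is higher at the end in 5 of 6 courses.

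In all, 4 of the 9 genes were called from 0–2 to 45–60 min in Nmd+ (*THI4* higher; *PHO3*, *THI7* and *THI80* lower), against 27.3% of all probe sets. In Nmd- 4 of 9 were called (*THI4* higher; *PET18*, *PHO3* and *THI7* lower), against 24.1%. Without the 11 arrays the counts were 4 of 9 in both strains, against 26.3% and 29.6%. From 2 min alone, 5 of 9 were called in Nmd+ (*THI4*, *THI6* and *THI2* higher; *PHO3* and *THI7* lower) against 26.4%, and 2 of 9 in Nmd- (*PET18* and *PHO3* lower) against 17.2%.

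The first 10 min gave few calls. From 0–2 to 6–10 min, limma called 0 of the 9 genes in Nmd+ (4 at an unadjusted p under 0.05) against 1.16% of probe sets. In Nmd- it called 2 of 9 against 8.32%, *PET18* at -0.67 ± 0.12 (adjusted p = 0.00843) and *PHO3* at -0.87 ± 0.25 (adjusted p = 0.0464). Neither call was made without the arrays out of sequence. Without those 5 the changes were -0.28 for *PET18* (adjusted p = 0.667) and -0.02 for *PHO3* (adjusted p = 0.990), and without the 11, which leaves each Nmd- course its 8-min array alone in this window, they were 0.09 and 0.13, with 0 of 9275 probe sets called. The interaction of strain and time at 6–10 min called 0 of 9 genes (2 at an unadjusted p under 0.05) and 0 of 9275 probe sets (958 at an unadjusted p under 0.05). Without the 11 arrays it called 0 of 9 against 0.097%, and the count in Nmd+ at 6–10 min was 0 of 9 against 0.162%.

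The other genes of the pathway were compared as a list of 13 probe sets, chosen with earlier results known, in which *THI21* and *THI22* are also on the study's list drawn from these arrays. At 2–8 min 3 of the 13 were higher and 0 lower in Nmd- (3.40% of all probe sets called), at 12–30 min 2 and 0 (2.73%), and at 35–60 min 0 and 0 (0%). With the replicate number as a block the counts were 4 higher and 1 lower (6.03%), 4 and 0 (12.3%), and 0 and 0 (0.334%). The 3 called at 2–8 min were near-copies of members: *THI21* and *THI22*, which resemble the kinase *THI20*, and *THI72*, a relative of the transporter *THI7*. *THI21* course means at 2–8 min were 5.30, 5.62 and 5.72 in Nmd+ and 7.38, 7.66 and 7.94 in Nmd-, 2.11 higher (adjusted p = 0.00414). *THI22* was at 6.25, 5.78 and 5.93 against 7.73, 7.68 and 8.09, 1.85 higher (adjusted p = 0.00539). In the same window *THI20* differed by 0.61, and because the 3 genes are near-copies, signal can cross between their probe sets. The difference at 12–30 min was 1.87 for *THI21* (adjusted p = 0.00812) and 2.09 for *THI22* (adjusted p = 0.00423).

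For *THI72* the probe set with the larger difference was at 4.37, 4.23 and 4.32 in Nmd+ and 5.85, 5.84 and 5.56 in Nmd- at 2–8 min, a difference of 1.45 (adjusted p = 0.00676). It was the only *THI72* probe set called in this window. *THI7* differed by -0.23 ± 0.39 in the same window (adjusted p = 0.853). The probe set shared by *THI5*, *THI11*, *THI12* and *THI13*, the pyrimidine synthesis genes, was at 5.52 ± 0.29 (SD, n = 3) in Nmd+ and 5.99 ± 0.35 in Nmd- at 0–2 min.

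Over the hour, 0 of the 13 probe sets were called higher and 6 lower in Nmd-, with a median of -0.51 against 0.02 over all probe sets, of which 24.1% were called. *THI21* changed by -1.14 and *THI22* by -1.07, near the -1.13 of *PET18*. In Nmd+ 0 of the 13 were called, with a median of -0.20 against 0.05 and 27.3% of all probe sets called. The difference in change between strains was -1.25 for *THI21* with all arrays and -0.70 without the 11.

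The enzymes that use thiamine diphosphate, 12 probe sets, had no call in the unpaired strain comparisons at 2–8, 12–30 and 35–60 min. With the replicate number as a block, the 3 probe sets of the minor transketolase *TKL2* were called lower in Nmd- at 12–30 min, by -1.63, -1.70 and -1.95. Over the hour 4 of the 12 probe sets were called higher and 2 lower in each strain, against 27.3% of all probe sets called in Nmd+ and 24.1% in Nmd-, and 3 of the 4 belong to *TKL2*. They rose by 3.30, 3.76 and 4.25 in Nmd+ and by 2.47, 2.46 and 2.78 in Nmd-, and the minor pyruvate decarboxylase *PDC6* rose by 1.30 and 0.89. The main transketolase *TKL1* fell, with changes of -0.87 and -0.67, and so did the acetolactate synthase *ILV2* (-0.67 and -0.63). Of the pyridoxine genes (5 probe sets), vitamin B6 being a source of the pyrimidine part, the pyridoxal kinase gene *BUD16* fell in both strains (-1.10 in Nmd+ and -0.84 in Nmd-).

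*PET18* lies between *MAK32* and *MAK31* on the chromosome. None of the 4 probe sets of *MAK31*, *MAK32*, *SRD1* and *HSP30* was called in an unpaired strain comparison at 2–8, 12–30 or 35–60 min. With the replicate number as a block, *MAK31* was called higher (0.84, adjusted p = 0.00930) and *HSP30* lower (-1.54, adjusted p = 0.00961) in Nmd- at 12–30 min. *MAK31*, a subunit of an N-terminal acetyltransferase, differed by 0.22 at 2–8 min (adjusted p = 0.826) and by 0.84 at 12–30 min (adjusted p = 0.256). It fell over the hour in both strains (-1.16 in Nmd+ and -1.01 in Nmd-), whereas *HSP30*, a stress-induced membrane protein gene, rose by 4.25 and 3.76.

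**Figure D5:**
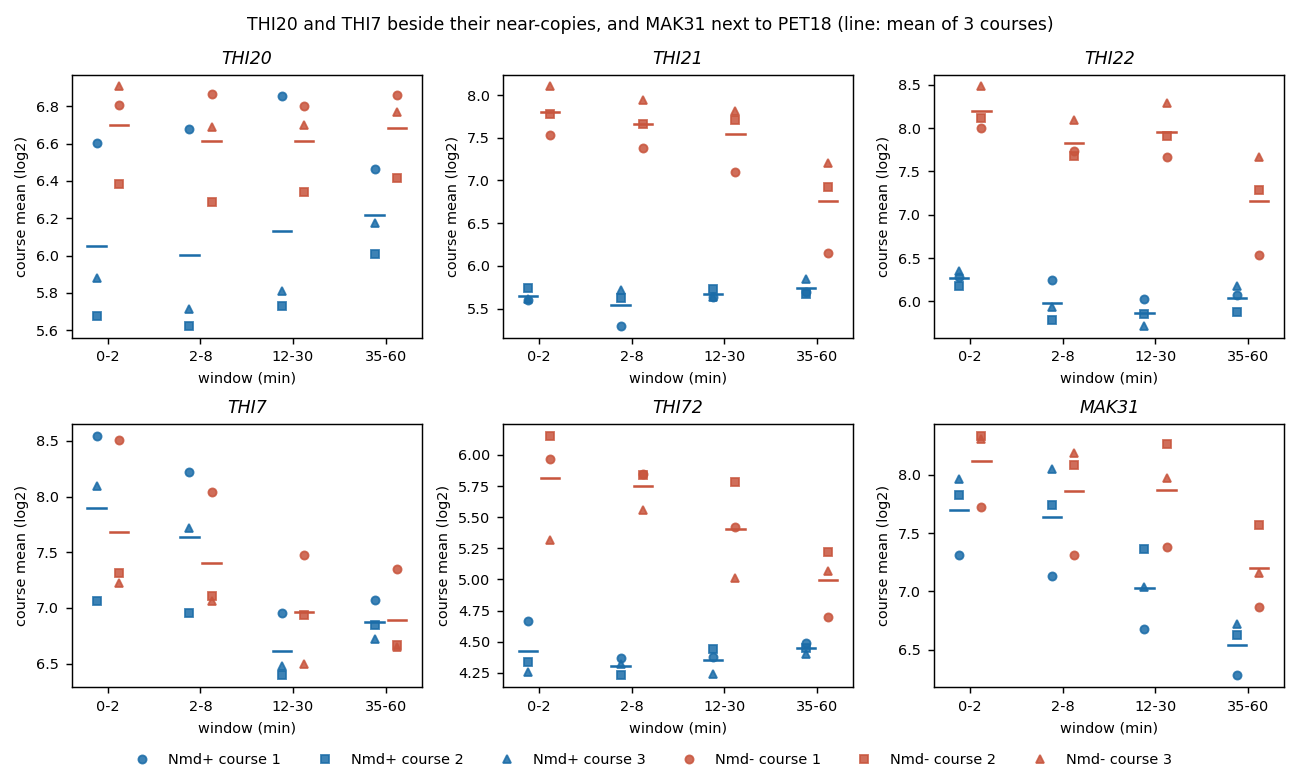
Course means of the log2 signal (y axis) of *THI20*, *THI21*, *THI22*, *THI7*, *THI72* and *MAK31* in windows of labelled minutes after thiolutin (x axis: 0–2, 2–8, 12–30 and 35–60 min), a point per course and a colour per strain. *THI21* and *THI22* are separated between strains at 2–8 min (differences of 2.11 and 1.85), while *THI20* and *THI7* overlap between the strains.

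The probe sets whose 32 strain-by-time means ran most like those of *PET18* were *COS12* (Pearson r = 0.983), *THI21* (0.981), *THI22* (0.981), *PEX35* (0.980) and *VBA2* (0.978). For *THI4* they were *CSR2* (0.951), *EDS1* (0.951), *FMO1* (0.946), *PDC6* (0.945) and *SPS100* (0.945). These are descriptions over means that share the same arrays, and the strain gap makes most of the spread for *PET18*.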

How the data were processed

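Total RNA was extracted with hot phenol, primed with oligo(dT) and hybridised as biotinylated cRNA. The authors summarised the signals by robust multi-chip average (RMA), as deposited, and these values were taken as log2: their maximum of 14.16 lies above 11.09, as high as a 16-bit scan could reach in natural logs, the scale that the methods name. The deposited scan settings, a further (other) kind of file, gave 3 scan periods: replicate 1 was scanned mostly in the first, replicates 2 and 3 mostly in the second. Strain, time and replicate came from the titles, because source names call every array *upf1*- and the 2-min arrays 0 min.

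After 60 array controls were left out of 9335 probe sets, 9275 were tested, of which 6504 carry 1 gene name, 328 several and 2443 none. Course means were compared with limma 3.58.1 in R 4.3.3, with Benjamini-Hochberg adjustment over all 9275 and probe sets were called where the adjusted p was below 0.05 and the change 1.5-fold or more. Changes over time used the windows 0–2, 6–10 and 45–60 min of both strains in 1 fit, with the course as a block. Strain windows compared 3 courses with 3. P-values measure the spread between these courses. The alternative with the scan period as a block was fitted to single arrays instead of course means. In strain windows it took in a common correlation of the arrays of a course. Its p-values therefore also rest on the spread between arrays of the same course.

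Members, lists and tests were chosen with earlier results of these data known. The genes named are the 9 members, the 5 probe sets most like *PET18* and *THI4*, and up to 4 per list with the smallest adjusted p. Same-numbered courses of the strains deviated together (r of 0.640, 0.277 and 0.663 at 2–8 min, 0.611, 0.570 and 0.726 at 12–30 min, 0.535, 0.364 and 0.725 at 35–60 min), so the number was also used as a block in those windows. At 0 min r was 0.103, -0.303 and 0.059. Alternatives changed the arrays, blocks, scaling, filters, fold minimum and fit, and the scripts were tested on simulated data. No sequences were used here.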

Additional observations from a re-analysis of the deposited data

Results flagged for a closer look

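*PET18* differed between the strains in its change from 0–2 to 45–60 min by -1.35 on the log2 scale (Nmd- minus Nmd+, interaction of strain and time), with -1.13 in Nmd- and 0.21 in Nmd+. It is listed because the fit over all probe sets called this difference. The gene was chosen with this contrast known, so the listing is no evidence and the value is a description. The call was made in 15 of 20 alternatives. It was not made without the 6 arrays with a marker against the label, or without the 11 against label or sequence. *PET18* was also low in Nmd+, where a fall may not be visible. Over the alternatives the difference lay between -1.71 and -1.0. Of the 4 arrays labelled Nmd- on which *UPF1* was present, those at 45 and 50 min enter it, and it was -1.11 without the 4 and -1.03 without the 6 arrays with a marker against the label.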

How the results depend on the processing

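Counts below are of the 9 genes called, unless probe sets are named. The 1 gene called in the main fit for the difference in change to 45–60 min is *PET18*, chosen with this contrast known. Counts for that difference therefore describe the fits and are no evidence. Without the 4 arrays with both markers against the label, the 6 with either, the 5 out of sequence or the 11 in all, 0 of 9 were called in Nmd- at 6–10 min against 2, and without the 6 or the 11 the strain difference in change to 45–60 min went from 1 to 0. Without the 11, the 6–10 min changes in Nmd- reversed to 0.09 for *PET18* and 0.13 for *PHO3*. Scan period 2 only gave 0 in Nmd- at 6–10 min, 2 in Nmd- at 45–60 min against 4, 0 for the difference in change, 1 at 2–8 min against 2 and 7 probe sets at 0 min against 462. Scan period as a block, fitted to single arrays, gave 1 in Nmd- at 6–10 min, 2 for the difference in change, 4 at 12–30 min against 1, 1 at 35–60 min against 0 and 272 probe sets at 0 min. The replicate number as a block, which pairs the courses, gave 4 at 12–30 min and 277 probe sets at 0 min, and changed no other count of calls among the members. With no replicate block of the courses, the counts were 0 in Nmd- at 6–10 min, 2 in each strain at 45–60 min and 0 for the difference in change. A start at 2 min gave 0 in Nmd- at 6–10 and 2 at 45–60 min. Single arrays at 60 against 0 min gave 2 in Nmd+ and 0 for the difference in change. Taking out a running median or centring on the median gave 1 in Nmd- at 6–10 min. Relative to the reference probe sets, 1 was called in Nmd+ at 6–10 min and 1 at 2–8 min, and *THI20* reversed to -0.61 in Nmd+ at 45–60 min. The cause was not tested for any of these. Leaving out 1 course at a time gave 2 to 5 (Nmd+ 45–60 min), 0 (Nmd+ 6–10 min), 2 to 4 (Nmd- 45–60 min), 0 to 3 (Nmd- 6–10 min), 0 to 1 (12–30 min), 0 to 2 (2–8 min), 0 (35–60 min), 1 to 2 (difference in change to 45–60 min), 0 (to 6–10 min) and 190 to 407 probe sets at 0 min. Of 2303 values of single genes under alternatives, 2149 kept direction and side of the threshold or were called in neither, 124 lost and 27 gained a call, and 3 reversed; 100 values called in neither setting changed sign. Over all probe sets the alternatives called 1601 to 5658 in Nmd+ at 45–60 min against 2536, 1367 to 4045 in Nmd- against 2234, 0 to 275 in Nmd+ at 6–10 min against 108, 0 to 1743 in Nmd- against 772, 74 to 766 at 2–8 min against 315, 38 to 1138 at 12–30 min against 253, 0 to 258 at 35–60 min against 0, 0 to 221 for the difference in change to 45–60 min against 118 and 0 to 9 to 6–10 min against 0. With 3 courses per strain and no detection calls used, the dim *THI2* and *THI80* are the least certain levels.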
